A study of Mus musculus with 6 samples.

Results

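The 9 Hoxa genes described here (Hoxa2, Hoxa3, Hoxa4, Hoxa5, Hoxa6, Hoxa7, Hoxa9, Hoxa10 and Hoxa11) were taken by symbol from a table of 29955 genes measured by RNA-seq in mouse embryonic fibroblasts (MEFs), the cells that grow out when an embryo is dissociated and plated. The study asked what the loss of RNF40 does to gene expression, and 3 Rnf40+/+ libraries were compared with 3 Rnf40-/- libraries, all from passage 3. RNF40 is a subunit of the ubiquitin ligase that places monoubiquitin on histone H2B. The conditional MEFs came from embryos with loxP sites in both Rnf40 alleles and a Rosa26-CreERT2 transgene, which gives a Cre recombinase in all cell types that acts once tamoxifen is bound. Rnf40-/- cells had been kept in 250 nM 4-hydroxytamoxifen (4-OHT) for 5 days and then for 3 days without it. The sources used here do not say whether the Rnf40+/+ cells carried these alleles or received 4-OHT, so genotype and treatment cannot be told apart, nor do they say whether the libraries of a genotype came from separate embryos or cultures, so p-values measure the spread between these libraries, which may be technical.

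Hox genes encode homeodomain transcription factors that give cells their position along the body axis. They lie in clusters in which the order on the chromosome follows the order of use in the embryo, with low paralog numbers at the head end and high paralog numbers toward the tail and the ends of the limbs. Fibroblasts keep much of the Hox pattern of the site they came from, and Polycomb proteins with H3K27me3 hold unused Hox genes silent while Trithorax proteins with H3K4me3 keep used ones active. All 9 genes lie on the minus strand of chromosome 6 (mm9), from the end of Hoxa2 at position 52112350 to the start of Hoxa11 at position 52196213, so that transcription runs from high toward low paralog number.

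Each deposited value is the number of reads on a gene divided by 1 size factor per library, called a normalized count here. The 6 libraries held between 17053436 and 26344170 reads on genes, and 3 reads, taken as the limit of detection, equalled a normalized count between 2.40 and 3.58. The lowest Hoxa value rested on 23 reads. Rnf40, the deleted gene, fell from 1190 ± 91.2 to 482 ± 39.9 (SD, n = 3), with 40.5% of the Rnf40+/+ mean left. The loxP sites flank only part of the gene, so a count over the whole gene does not measure how complete the deletion was. By western blot the paper reports effective deletion with loss of monoubiquitinated H2B. Rnf40+/+ replicate 3 stood farthest from its group, with a chi-square per gene of 28.8 and 25.9 against the other Rnf40+/+ libraries, next to 8.35 between those and 5.33 to 13.4 between Rnf40-/- libraries. In Rnf40+/+ replicate 1 the Y-linked Ddx3y had a normalized count of 81.2 against 0 to 7.1 in the other libraries, the epithelial keratin Krt8 58.5 against 1.0 to 9.6, and the synaptic gene Syt1 114.6 against 0.8 to 15.1. Of 10 fibroblast genes 8 passed the test as lower in Rnf40-/- and 0 as higher. Among all genes tested 24.1% were lower and 23.3% higher. The summed level of 9 macrophage genes, mostly Lyz2, ran from 5250 to 9513 in Rnf40+/+ and from 3406 to 3778 in Rnf40-/-. Of the 8 macrophage genes tested, 3 were lower and 2, Ptprc and Cd14, were higher. The macrophage gene Lyz2 was highest in Rnf40+/+ replicate 3 (7440 against 3945 and 4557 in the other Rnf40+/+ libraries). Without Rnf40+/+ replicate 1 the test called 2 Hoxa genes higher and 1 lower, and without Rnf40+/+ replicate 3 it called 0 higher and 1 lower. Among all 16378 genes these fits called 3627 and 3761 higher, and 3835 and 3886 lower. Without Rnf40+/+ replicate 2 the test called 0 Hoxa genes higher and 1 lower. Without Rnf40-/- replicates 1, 2 and 3 in turn it called 2, 0 and 1 higher, and 1 lower each time. Among all genes these further fits called 3541, 3030, 3077 and 3202 higher, and 3528, 3335, 3366 and 3555 lower. The part of these shifts in the Hoxa values was not tested.

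Of the 9 Hoxa genes, 1 passed the test as lower in Rnf40-/- MEFs, 2 as higher and 6 not at all (limma on log2 of the normalized count plus 1, Benjamini-Hochberg adjustment over 16378 genes, threshold 0.05). Hoxa3, which is needed for the thymus and parathyroid, was lower, and Hoxa10 and Hoxa11, which pattern the lumbar and sacral skeleton and the uterus, were higher. Among all genes tested, 23.3% were called higher and 24.1% lower, so the share of Hoxa genes called was close to the background for higher genes (22.2%) and below it for lower genes (11.1%). The normalized counts of the genotypes did not overlap for the same 3 genes, while 27.8% of all genes tested were higher and 28.7% lower without overlap. The 9 genes had a median log2 fold change of 0.0024, next to -0.0035 for all genes tested. The summed normalized count of the 9 genes was 2139 ± 246 in Rnf40+/+ and 2094 ± 132 in Rnf40-/-, with ranges that overlapped. In bulk RNA, fewer cells that express a gene and less RNA per cell cannot be told apart.

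**Figure D1:**
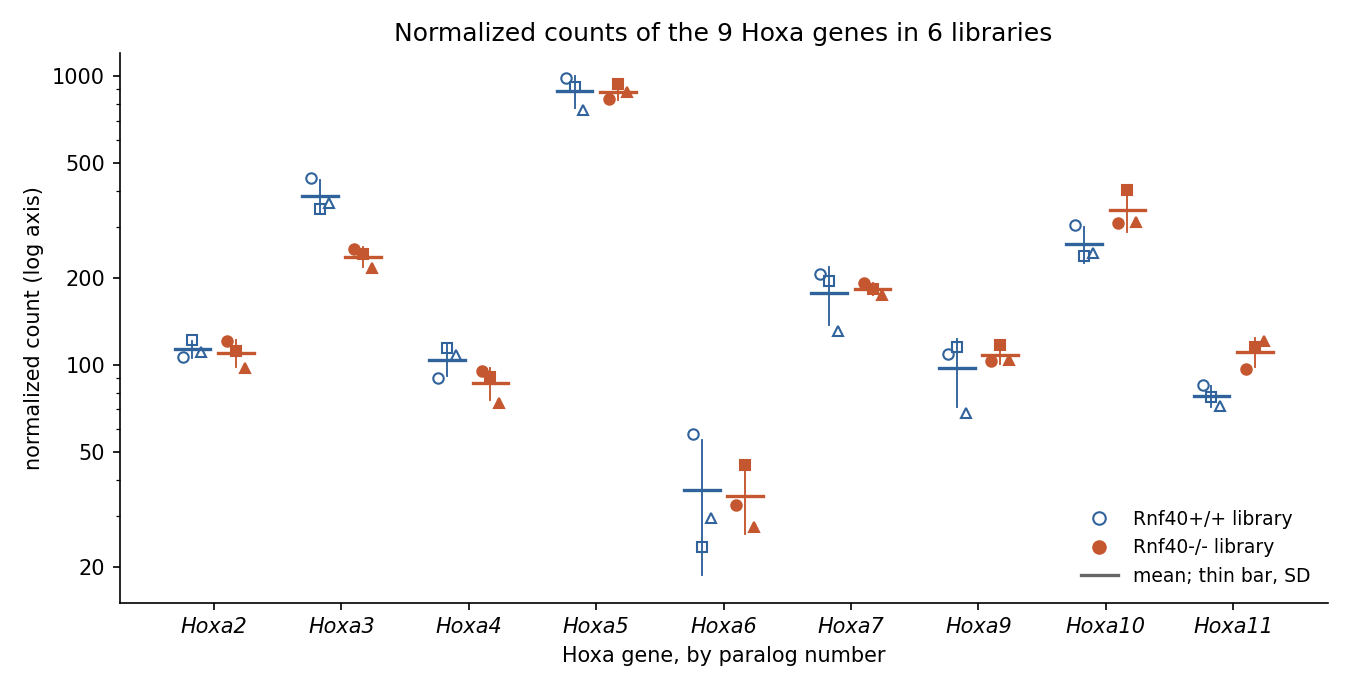
Normalized counts (log axis) of the 9 Hoxa genes by paralog number, with open blue symbols for the 3 Rnf40+/+ libraries, filled orange symbols for the 3 Rnf40-/- libraries (circle, square and triangle for replicates 1, 2 and 3), a line for the mean and a thin bar for the SD. Hoxa3 lies lower in Rnf40-/- (216 to 252 against 347 to 443), Hoxa10 and Hoxa11 lie higher, and the other genes overlap.

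The starts of the 3 genes that passed the test, and that of Hoxa5, the most abundant member, are shown because CpG-rich starts are where Polycomb and Trithorax proteins are known to gather on Hox genes. RefSeq promoters (250 bases before to 50 after a start, placed on mm9 by exact match) were found for 8 of the 9 genes, with Hoxa4 as the other one, and Hoxa10 had a pair of them. The sequences read from upstream into the gene on the minus strand, in lower case with each CpG dinucleotide in capitals, and belong in this order to Hoxa3 (chr6:52163017-52163316), Hoxa5 (chr6:52154537-52154836), the start of Hoxa10 nearer to Hoxa9 (chr6:52184889-52185188), the start of Hoxa10 nearer to Hoxa11 (chr6:52190804-52191103) and Hoxa11 (chr6:52195760-52196059).
Hoxa3: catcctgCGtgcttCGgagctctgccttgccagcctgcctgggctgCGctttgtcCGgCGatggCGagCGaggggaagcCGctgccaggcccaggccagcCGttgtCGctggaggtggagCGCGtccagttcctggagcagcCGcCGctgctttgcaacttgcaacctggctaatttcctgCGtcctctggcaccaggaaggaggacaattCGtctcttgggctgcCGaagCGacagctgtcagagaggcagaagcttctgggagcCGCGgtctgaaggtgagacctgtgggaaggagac
Hoxa5: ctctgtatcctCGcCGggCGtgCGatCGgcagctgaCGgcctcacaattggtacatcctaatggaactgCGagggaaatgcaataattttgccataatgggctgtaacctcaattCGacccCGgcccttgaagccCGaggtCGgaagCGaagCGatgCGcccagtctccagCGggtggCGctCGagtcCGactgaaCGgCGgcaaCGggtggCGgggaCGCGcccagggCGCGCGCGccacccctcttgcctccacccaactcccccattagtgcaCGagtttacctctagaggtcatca
Hoxa10, start nearer to Hoxa9: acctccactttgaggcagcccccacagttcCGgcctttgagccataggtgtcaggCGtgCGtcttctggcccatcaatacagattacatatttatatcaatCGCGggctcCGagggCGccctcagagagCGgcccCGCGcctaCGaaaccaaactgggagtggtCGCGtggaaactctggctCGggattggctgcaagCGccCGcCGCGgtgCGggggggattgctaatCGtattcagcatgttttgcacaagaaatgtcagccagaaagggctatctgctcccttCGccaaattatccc
Hoxa10, start nearer to Hoxa11: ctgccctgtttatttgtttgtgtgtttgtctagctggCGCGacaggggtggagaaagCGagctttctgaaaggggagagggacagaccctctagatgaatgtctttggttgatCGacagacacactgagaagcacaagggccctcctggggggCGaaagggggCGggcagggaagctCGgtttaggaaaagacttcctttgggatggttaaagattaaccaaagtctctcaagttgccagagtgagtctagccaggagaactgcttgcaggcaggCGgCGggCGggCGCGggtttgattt
Hoxa11: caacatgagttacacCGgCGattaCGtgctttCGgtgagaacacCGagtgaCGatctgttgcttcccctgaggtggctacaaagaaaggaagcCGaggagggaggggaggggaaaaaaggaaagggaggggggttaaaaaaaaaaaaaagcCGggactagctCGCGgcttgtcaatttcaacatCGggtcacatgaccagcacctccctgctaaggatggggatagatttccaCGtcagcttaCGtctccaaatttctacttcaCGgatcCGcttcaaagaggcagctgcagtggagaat
The Hoxa3 window held 20 CpG dinucleotides, the Hoxa5 window 29, the Hoxa10 windows 21 and 12 and the Hoxa11 window 15. The median over 32851 RefSeq promoters of the same length was 7, and 26.5% of them held at least 20. The lower and the higher genes were therefore not separated by CpG number. TATAAA, searched on both strands, matched once in the Hoxa10 window nearer to Hoxa9 and in 13.6% of all promoters, and CCAAT, searched likewise, matched once in that window and once in the Hoxa5 window, apart from the TATAAA match, and in 37.4% of all promoters.

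Hoxa3 (chr6:52118509-52163335 for its longest transcript's gene record, with a further record at chr6:52113358-52163338) spans Hoxa4, Hoxa5 and Hoxa6, and its printed start lies upstream of Hoxa6. Normalized counts of Hoxa3 were 443, 347 and 364 in Rnf40+/+ and 252, 241 and 216 in Rnf40-/- MEFs. Every Rnf40-/- library was below every Rnf40+/+ library. The means were 385 ± 51.3 and 236 ± 18.3 (SD, n = 3), that is, Rnf40-/- MEFs had 61.5% of the Rnf40+/+ level. The fitted log2 fold change was -0.69 with a standard error of 0.12 and an adjusted p of 0.000537 (limma). Its 95% interval ran from -0.96 to -0.43. Hoxa3 stayed past the threshold under all 15 alternatives tried, with values from -0.77 to -0.59. Of the 5385 exonic bases annotated for Hoxa3, 1055 are also exonic in 5730446D14Rik on the opposite strand and 267 in Hoxa2 on the same strand, and how the counting treated such reads is not given in the sources used here. 5730446D14Rik had 98.0 ± 29.5 and 74.6 ± 17.2 normalized counts, with an adjusted p of 0.236.

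Hoxa2, a regulator of hindbrain and arch identity, and Hoxa4, a regulator of the neck vertebrae, are the other members with low paralog numbers. Hoxa2 had normalized counts of 106, 121 and 111 in Rnf40+/+ and of 120, 112 and 97.3 in Rnf40-/-. Hoxa4 had 89.6, 114 and 108 in Rnf40+/+ and 94.8, 90.8 and 73.6 in Rnf40-/-. Both genes overlapped between genotypes. The log2 fold change of Hoxa2 was -0.04 with a standard error of 0.16, an adjusted p of 0.840 and a 95% interval from -0.38 to 0.30. For Hoxa4 it was -0.26 with a standard error of 0.18, an adjusted p of 0.246 and an interval from -0.65 to 0.12, whose lower end lies near the estimate for Hoxa3.

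Hoxa5, which acts in the lung and at the border of neck and thorax, and Hoxa6 and Hoxa7, which act in the thorax, lie between the genes that moved. Hoxa5 had normalized counts of 982, 915 and 764 in Rnf40+/+ and of 830, 939 and 878 in Rnf40-/-. The means, 887 ± 111 and 882 ± 54.8, differed by less than the spread between libraries, and the 95% interval of the log2 fold change ran from -0.21 to 0.21 (adjusted p = 0.994). This was the narrowest interval among the 9 genes. Hoxa6 was the least abundant, with 57.3, 23.5 and 29.5 in Rnf40+/+ and 32.6, 44.9 and 27.4 in Rnf40-/-, or between 23 and 48 reads. Its highest value was that of Rnf40+/+ replicate 1, and its interval, from -0.75 to 0.75, was the widest of the 9. It includes a change as large as that of Hoxa3, with a coefficient of variation of 49.1% between the Rnf40+/+ libraries. Hoxa7 had 205, 195 and 131 in Rnf40+/+ and 192, 183 and 175 in Rnf40-/-, a log2 fold change of 0.07 with an interval from -0.29 to 0.44 (adjusted p = 0.745). Of its 2657 exonic bases 586 lie opposite an exon of 2700086A05Rik, which was low in both genotypes (7.70 ± 5.61 and 10.7 ± 6.15).

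Hoxa9, a regulator of blood progenitors and of the trunk skeleton, had normalized counts of 109, 115 and 67.9 in Rnf40+/+ and of 103, 117 and 104 in Rnf40-/-. Rnf40+/+ replicate 3 was the lowest library for Hoxa9 as it was for Hoxa5 and Hoxa7. The log2 fold change was 0.18 with a standard error of 0.21 and an interval from -0.27 to 0.63 (adjusted p = 0.493). Without that library the value was -0.05 for Hoxa9 and -0.13 for Hoxa7.

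Hoxa10 (chr6:52181196-52190853) had normalized counts of 305, 239 and 243 in Rnf40+/+ and of 310, 404 and 313 in Rnf40-/-. All 3 Rnf40-/- libraries were above all 3 Rnf40+/+ libraries, but the nearest values were 305 and 310. The means were 262 ± 36.9 and 342 ± 53.5, or 131% of the Rnf40+/+ level. The log2 fold change was 0.38 with a standard error of 0.14 and a 95% interval from 0.083 to 0.68 (adjusted p = 0.0370, limma). The call was kept under 12 of 15 alternatives. It was lost without Rnf40+/+ replicate 2 (0.32, adjusted p = 0.130), without Rnf40+/+ replicate 3 (0.33, adjusted p = 0.0746) and without Rnf40-/- replicate 2, the library with the highest value (0.26, adjusted p = 0.174).

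Hoxa11 (chr6:52192107-52196213), which also patterns the forearm and lower leg and the kidney, showed the largest rise of the 9. Its normalized counts were 84.8, 77.5 and 71.9 in Rnf40+/+ and 96.9, 115 and 121 in Rnf40-/-. The groups did not overlap. The means were 78.1 ± 6.48 and 111 ± 12.5, or 142% of the Rnf40+/+ level, with a log2 fold change of 0.50, a standard error of 0.17 and a 95% interval from 0.13 to 0.87 (adjusted p = 0.0294, limma). The call was kept under 10 of 15 alternatives. It was lost with the Wald test of DESeq2 (0.52, adjusted p = 0.0565), without Rnf40+/+ replicate 2 (0.49, adjusted p = 0.0639), without Rnf40+/+ replicate 3 (0.44, adjusted p = 0.0693), without Rnf40-/- replicate 2 (0.47, adjusted p = 0.0878) and without Rnf40-/- replicate 3 (0.43, adjusted p = 0.107).

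Hoxa11as, a long noncoding RNA transcribed from the opposite strand, shares 1038 of the 2689 exonic bases of Hoxa11. It had normalized counts of 39.4, 40.8 and 47.9 in Rnf40+/+ and of 60.2, 73.1 and 61.4 in Rnf40-/-, with no overlap. Its log2 fold change was 0.59 with a standard error of 0.21 (adjusted p = 0.0354). The library kit keeps strand, but whether the counting used it is not given in the sources used here, and without strand the reads of Hoxa11 and Hoxa11as in the shared bases cannot be told apart.

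Beyond Hoxa11, Hoxa13, the gene of the hand and foot plate, had between 1 and 7 reads in every library and was not tested. Mir196b, which lies within Hoxa9, and the neighbouring homeobox gene Evx1 reached at most 1 read. On the other side of the cluster Skap2 was higher in Rnf40-/-, at 963 ± 58.9 and 1139 ± 72.4 (log2 fold change 0.24, adjusted p = 0.0231).

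Ordered by paralog number, the log2 fold changes ran from -0.69 for Hoxa3 through -0.26, -0.0012, 0.0024, 0.07, 0.18 and 0.38 to 0.50 for Hoxa11, with Hoxa2 at -0.04 as the only gene out of order. Spearman's rho between paralog number and log2 fold change was 0.95 and Pearson's r 0.83 over the 9 genes, which share libraries and are not independent. As distances from the Rnf40+/+ mean of log2 values, rho was 0.82, 0.85 and 0.87 for Rnf40-/- replicates 1, 2 and 3 and 0.32, 0.033 and -0.53 for those of Rnf40+/+. The Rnf40+/+ distances of each gene sum to 0 by construction, and the Rnf40-/- distances share 1 baseline. The values per library are therefore not separate support for the order. Under the 15 alternatives the rho of the fold changes lay between 0.70 and 0.95. The lowest value came without Rnf40+/+ replicate 3. The 95% intervals of neighbouring genes overlapped except between Hoxa2 and Hoxa3, and 6 of the 9 intervals included 0.

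**Figure D2:**
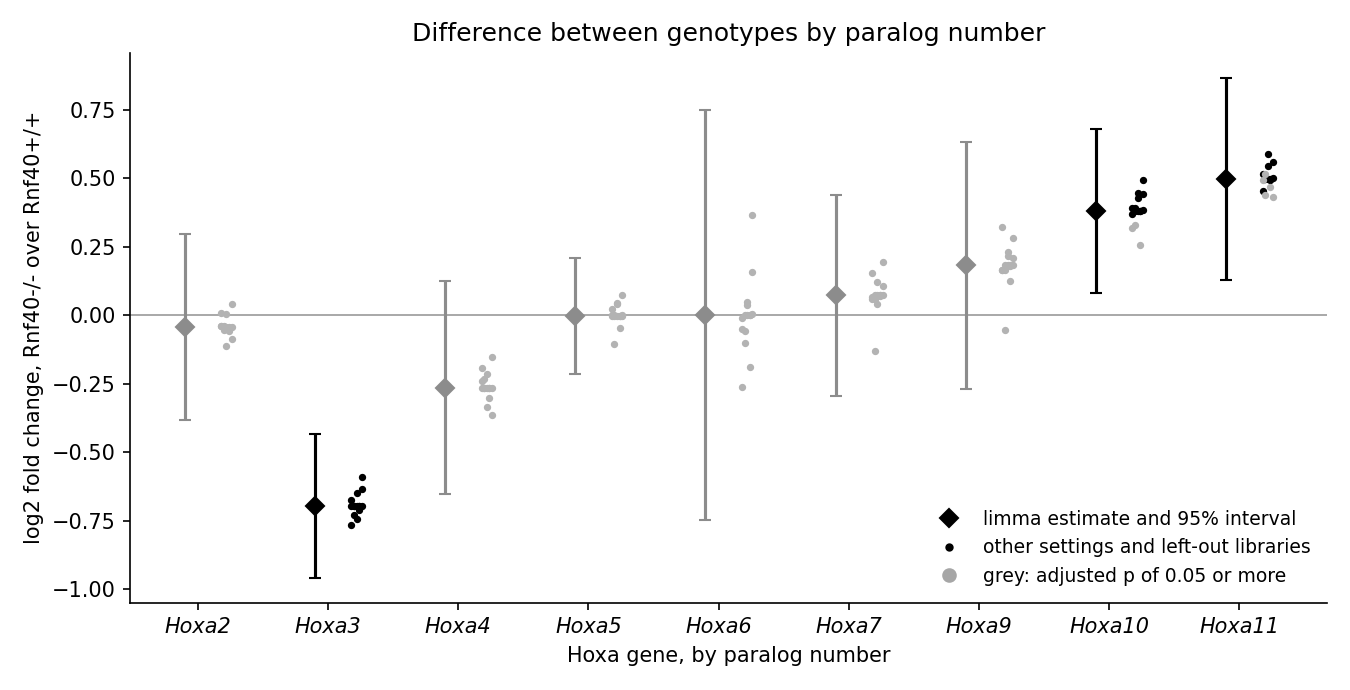
Log2 fold change (Rnf40-/- over Rnf40+/+) of the 9 Hoxa genes by paralog number, as diamonds with 95% intervals and, to the right of each, small points for the 15 alternatives; black marks an adjusted p under 0.05 and grey the rest. The estimates climb from -0.69 for Hoxa3 to 0.50 for Hoxa11, and grey points beside Hoxa10 and Hoxa11 are the settings that lost the call.

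The make-up of the Hoxa output differed between genotypes while its sum did not separate them. The shares and the ratio given here restate the same normalized counts. They are not evidence apart from the fold changes of Hoxa3, Hoxa10 and Hoxa11. Hoxa3 made up 18.6%, 16.2% and 19.3% of the summed Hoxa count in Rnf40+/+ and 12.4%, 10.7% and 10.8% in Rnf40-/-. Hoxa10 made up 12.2% ± 0.98 and 16.3% ± 1.49, and Hoxa11 3.66% ± 0.13 and 5.30% ± 0.65 (SD, n = 3). Hoxa5 held 40.4% to 42.6% in Rnf40+/+ and 40.9% to 43.8% in Rnf40-/-. The shares of Hoxa3, Hoxa10 and Hoxa11 did not overlap between genotypes, and those of the other members did. The ratio of the summed count of Hoxa9, Hoxa10 and Hoxa11 to that of Hoxa2 through Hoxa7 was 0.264, 0.251 and 0.254 in Rnf40+/+ and 0.335, 0.395 and 0.366 in Rnf40-/-. The lowest Rnf40-/- ratio was thus above the highest Rnf40+/+ ratio. With reads divided by transcript length the ratio was 0.197 ± 0.0073 and 0.275 ± 0.022. With 3 libraries against 3 an exact permutation test cannot give a p below 0.1, and none is given.

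**Figure D3:**
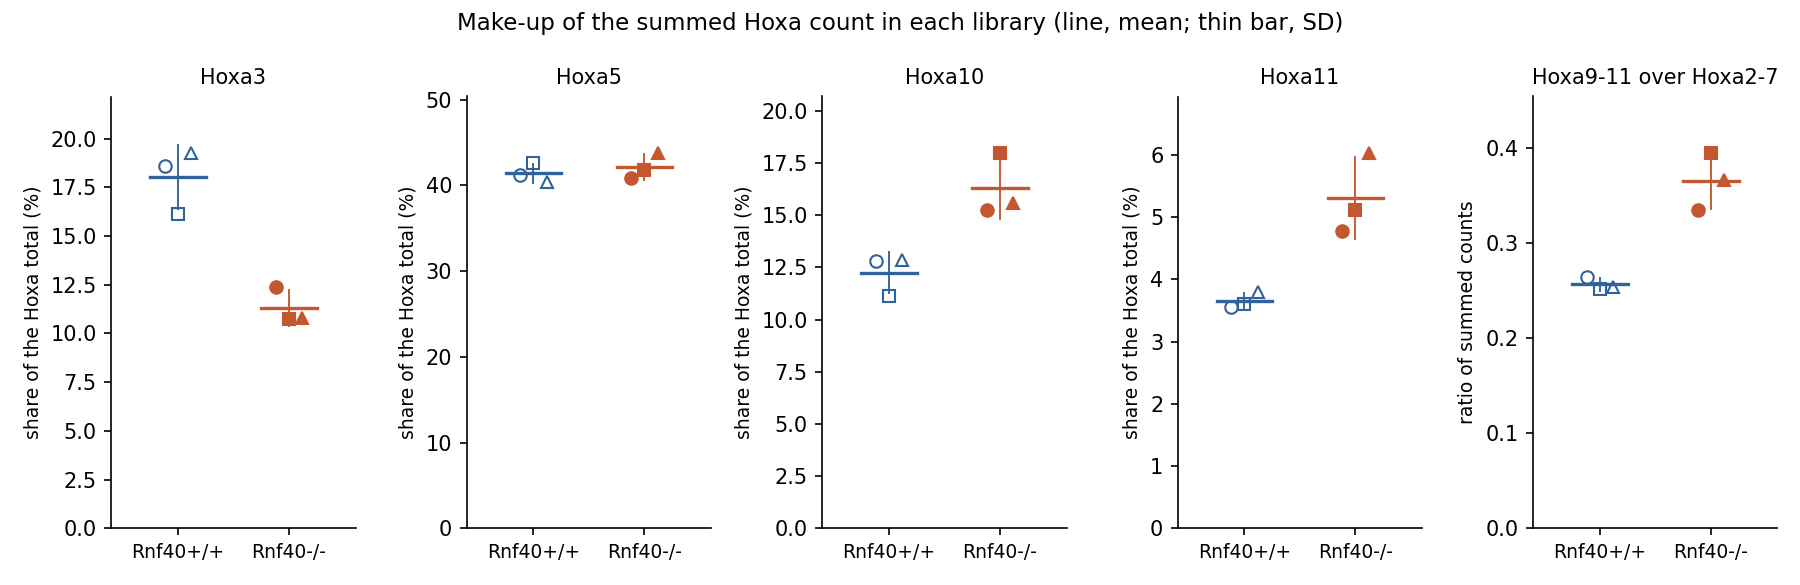
Share of the summed Hoxa count (%) taken by Hoxa3, Hoxa5, Hoxa10 and Hoxa11, and the ratio of Hoxa9 through Hoxa11 to Hoxa2 through Hoxa7, in each library (open blue, Rnf40+/+; filled orange, Rnf40-/-; line, mean; thin bar, SD; axes start at 0). Genotypes separate in all panels but that of Hoxa5, whose share stays near 42.2%.

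Levels of different genes were compared as RPKM, computed from the recovered reads with the length of the longest coding transcript. In Rnf40+/+ Hoxa5 led with an RPKM of 22.7 ± 3.18, followed by Hoxa3 (5.97 ± 0.93), Hoxa10 (4.91 ± 0.80), Hoxa7 (4.19 ± 0.99), Hoxa4 (3.12 ± 0.32), Hoxa2 (2.23 ± 0.11), Hoxa9 (1.45 ± 0.39), Hoxa11 (1.39 ± 0.14) and Hoxa6 (1.03 ± 0.53). The ranges of the 3 Rnf40+/+ libraries did not overlap between Hoxa5 and Hoxa3 (3.80 times), Hoxa4 and Hoxa2 (1.40 times) and Hoxa2 and Hoxa9 (1.54 times). All other neighbours in this order overlapped. In Rnf40-/- Hoxa5 (24.6 ± 1.70) still led, Hoxa10 (6.98 ± 1.17) and Hoxa7 (4.71 ± 0.25) stood above Hoxa3 (4.00 ± 0.34), and Hoxa11 (2.16 ± 0.24) stood above Hoxa9 (1.75 ± 0.14). Among 13965 tested genes with a length, Hoxa5 lay at percentile 77.3 in Rnf40+/+, Hoxa3 at 46.2 and Hoxa6 at 17.9. The order rests on the transcript chosen: the coding transcripts of Hoxa3 run from 347 to 3095 bases and those of Hoxa9 from 448 to 3226. With the shortest coding transcript of each gene, Hoxa3 had 53.2 in Rnf40+/+ and stood above Hoxa5 at 22.7.

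**Figure D4:**
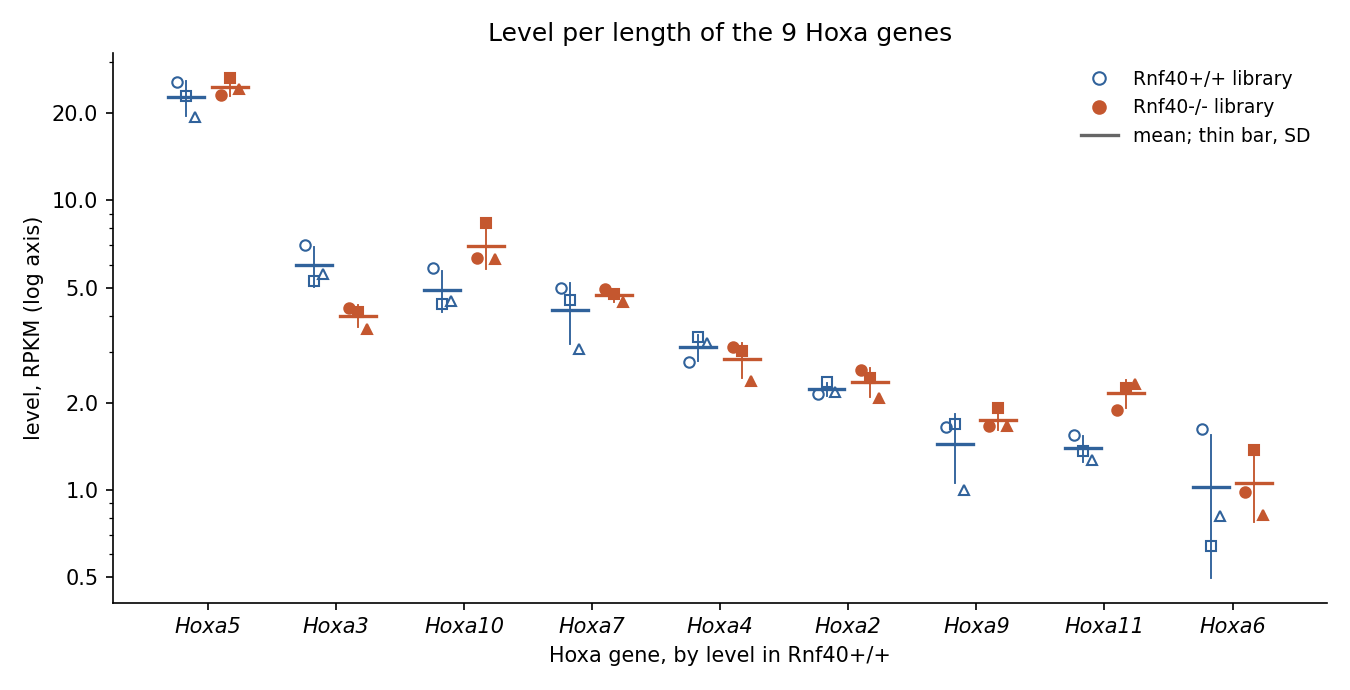
Level per length (RPKM, log axis) of the 9 Hoxa genes in the order of their Rnf40+/+ mean, with open blue symbols for Rnf40+/+ and filled orange symbols for Rnf40-/- libraries, a line for the mean and a thin bar for the SD. By the longest coding transcript, Hoxa5 stands 3.80 times above Hoxa3, and Hoxa3, whose Rnf40+/+ range overlaps that of Hoxa10, lies below Hoxa10 and Hoxa7 in Rnf40-/-.

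Across the 6 libraries, the genes whose log2 values followed those of Hoxa5 most closely were 2010000I03Rik (Pearson's r = 0.99), the histone deacetylase Hdac2 (0.98) and AK149278 (0.98), and those most opposed were H2afj (-0.99), 2310061F22Rik (-0.99) and Kcnk13 (-0.99). These were the extremes of 16378 genes over 6 libraries and are given as a description.

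The 3 other Hox clusters were read from the same fit, in which 23.3% of all genes were higher and 24.1% lower. Of 9 tested Hoxb genes 5 were lower and 0 higher, of 7 tested Hoxc genes 4 were lower and 1 higher, and of 5 tested Hoxd genes 1 was lower and 0 higher. The summed mean count of the tested Hoxb genes went from 6007 to 4708 and that of Hoxc from 4247 to 3152, while that of Hoxa went from 2139 to 2094. Among the paralogs of Hoxa3, Hoxb3 was lower (-0.64, adjusted p = 0.00142) and Hoxd3 had -0.48 (adjusted p = 0.0973). Of the other paralogs, some were called where their Hoxa gene was not, and some, such as Hoxb5, Hoxb6 and Hoxb9, were not called either. Hoxb2 (-1.21, adjusted p = 8.3e-07), Hoxb7 (-0.89, adjusted p = 3.36e-05) and Hoxc6 (-1.31, adjusted p = 6.08e-08) were lower. Hoxa2, Hoxa7 and Hoxa6 were not called. Hoxc10 (0.21) and Hoxd10 (0.38) were above 0, as Hoxa10 was, but were not called. For genes with paralog numbers up to 8 the median log2 fold change was -0.02 in Hoxa (6 genes), -0.52 in Hoxb (8), -0.34 in Hoxc (4) and -0.41 in Hoxd (3). For genes with paralog numbers from 9 it was 0.38 in Hoxa (3 genes), -0.09 in Hoxb (1 gene), 0.21 in Hoxc (3) and 0.02 in Hoxd (2). The higher Hoxc gene was Hoxc13, at 1.71 (adjusted p = 3.5e-06). Spearman's rho between paralog number and log2 fold change was 0.28 in Hoxb, 0.86 in Hoxc and 0.70 in Hoxd, next to 0.95 in Hoxa. The differences between clusters were not tested.

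**Figure D5:**
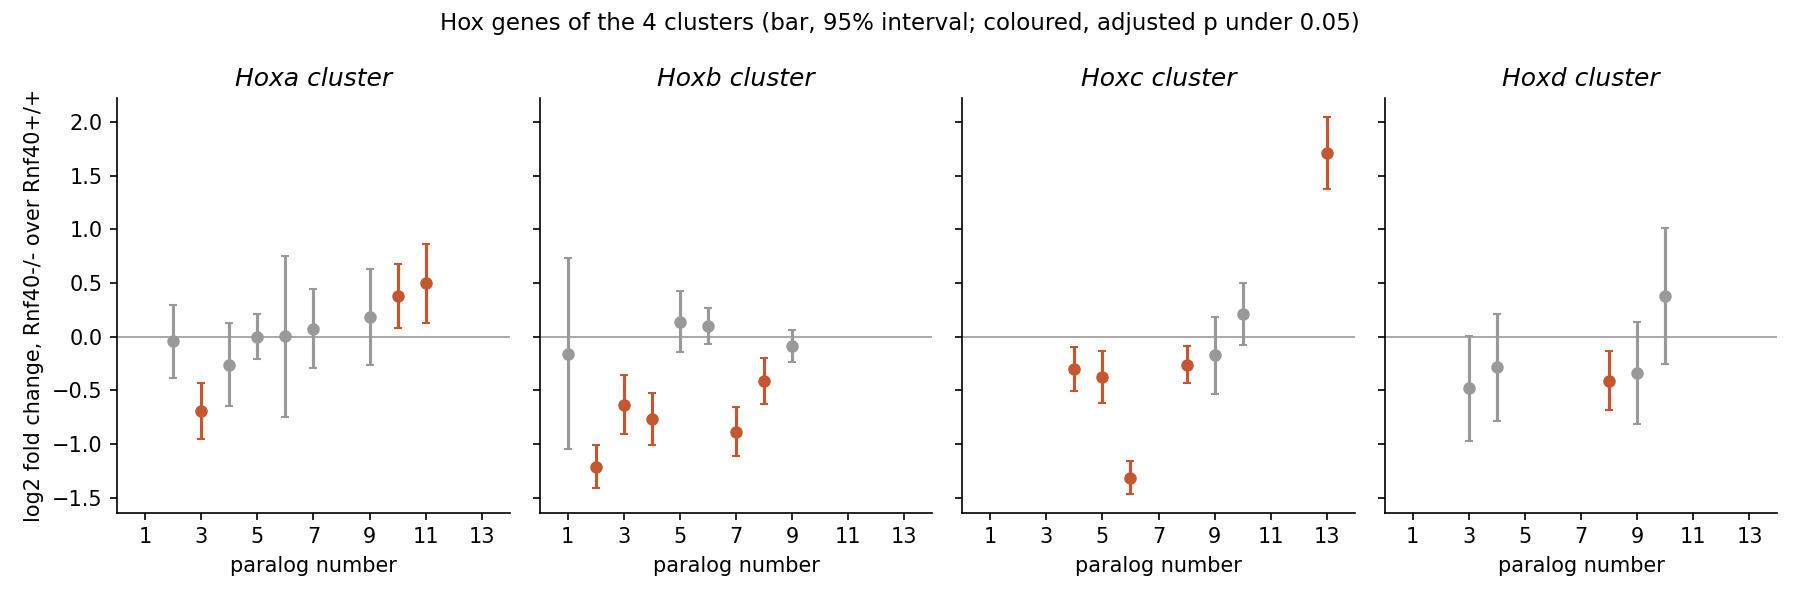
Log2 fold change (Rnf40-/- over Rnf40+/+) with 95% interval against paralog number for the tested genes of the 4 Hox clusters, with an adjusted p under 0.05 in orange and the rest in grey. In Hoxa the orange points are Hoxa3 below 0 and Hoxa10 and Hoxa11 above it. In orange below 0 lie 5 of 9 Hoxb, 4 of 7 Hoxc and 1 of 5 Hoxd genes, and Hoxc13 lies above 0 in orange.

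Among genes that work with or on Hox clusters, calls went in both directions. Of 9 TALE homeodomain genes, whose products bind DNA together with Hox proteins, 5 were lower and 3 higher, with Meis1 at -0.95 (adjusted p = 7.26e-06) and Meis2 not called. Of 10 Trithorax-side genes 5 were lower and 4 higher, among them Kdm6b, a demethylase of H3K27me3, at -0.91 (adjusted p = 1.1e-06) and Mll1, an H3K4 methyltransferase, at 0.76 (adjusted p = 3.68e-06). Of 16 Polycomb genes 6 were lower, 4 higher and 6 not called, with the H3K27 methyltransferase Ezh2 at -1.17 (adjusted p = 2.35e-05). By name, Hoxa3, Hoxa7, Hoxa9 and Hoxa11 stand in the EZH2 target list that accompanies the study, and Hoxa2, Hoxa3, Hoxa5 and Hoxa6 in its list of genes with broad H3K4me3, so that Hoxa3 is in both. Of 12 genes that make, carry or sense retinoic acid, 4 were lower, 2 higher and 6 not called. Retinoic acid is a known inducer of Hox genes of low paralog number and was not itself measured. Aldh1a1, a retinoic acid synthesizing enzyme, was at 1.84 (adjusted p = 3.34e-07). Cyp26b1, which breaks retinoic acid down, was at -1.14 (adjusted p = 5.5e-05). The carrier gene Crabp1 was at -3.41 (adjusted p = 1.62e-05) and the receptor gene Rarg at -0.40 (adjusted p = 0.000324). Of 8 genes known as targets of Hox proteins 4 were lower and 1 higher, with the integrin genes Itga8 at -0.56 (adjusted p = 0.000381) and Itgb3 at -0.55 (adjusted p = 0.00178). Of 15 genes that mark limb, head or flank mesenchyme 4 were lower and 3 higher. Beside these counts stand the backgrounds of 23.3% higher and 24.1% lower.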

How the data were processed

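Reads were mapped by the authors to the transcriptome of mm9 and scaled with DESeq, and the submitters' processing notes name Bowtie2 (version 2.1.0) and DESeq (version 1.14.0). The counting tool and its strand setting are not given in the sources used here. The deposited values are a signal in normalized counts, that is, reads divided by a size factor per library. In each library, 100% of the values above 0 came out as whole reads (tolerance 0.02) when divided by the smallest step, and these reads were used where reads were needed. Depth was 17053436 to 26344170 reads on genes. Intervals and limits that rest on reads cover counting error only.

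Genes were filtered with filterByExpr by genotype on the recovered reads, leaving 16378, and tested with limma (version 3.58.1, lmFit and eBayes with trend) on log2(normalized count + 1), with no term but genotype, and p-values were adjusted by Benjamini-Hochberg. A fold change on this scale understates the change of low genes. Positions and lengths came from an mm9 annotation. Alternatives were edgeR (version 4.0.16, quasi-likelihood, TMM), which called 3857 genes higher and 3940 lower on the recovered reads, DESeq2 (version 1.42.0), upper-quartile and TMM scaling, pseudocounts of 0.1 and 10, a filter of at least 10 reads in every library or none, a replicate block and each library left out in turn. The order by paralog number was recomputed under these after the data were seen, as were shares without each library. The scripts were tested on simulated data.

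The members and lists were chosen with earlier results of these data known. The genes named were the members, up to 4 genes of each list with the lowest adjusted p, the neighbours in the cluster, the 3 genes most like and the 3 most opposed to the member with the highest level, and Rnf40, and some genes of this rule are not reported here. Ddx3y, Krt8, Lyz2, Syt1, Meis2, Hoxb3, Hoxb5, Hoxb6, Hoxb9, Hoxc10, Hoxd3 and Hoxd10 were named after their values were seen. R (version 4.3.3) and Python (version 3.11.15) were used. The ChIP-seq experiments were not analysed.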

Additional observations from a re-analysis of the deposited data

How the results depend on the processing

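Of the 9 Hoxa genes, Hoxa3 and Hoxa4 kept both direction and side of the threshold under all 15 alternatives. The number called lower stayed at 1 throughout. The number called higher was 2, but 1 with DESeq2 and 0 to 2 with a library left out, and Hoxa11 missed the threshold with DESeq2 (0.52). Leaving out libraries gave 0.26 to 0.49 for Hoxa10, 0.43 to 0.59 for Hoxa11 and -0.77 to -0.59 for Hoxa3, and 6365 to 7647 genes called in all against 7764. Members near 0 changed sign: Hoxa5 to 0.00087 with edgeR, 0.00081 with DESeq2 and 0.047 with upper-quartile scaling, Hoxa6 to -0.051 with edgeR, -0.056 with DESeq2 and -0.0088 with a pseudocount of 10, and Hoxa2 to 0.0042 with upper-quartile scaling. With a library left out they ran from -0.11 to 0.040 (Hoxa2), -0.10 to 0.076 (Hoxa5), -0.26 to 0.37 (Hoxa6), -0.13 to 0.19 (Hoxa7) and -0.054 to 0.32 (Hoxa9). The difference of the ratio of Hoxa9 through Hoxa11 to Hoxa2 through Hoxa7 was 0.11 in reads, 0.077 per length, and 0.094 to 0.12 with a library left out. The cause of these shifts was not tested.

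Replicate numbers are shared by the genotypes. The deviations of same-numbered libraries correlated at 0.012, 0.017 and 0.021, and those of the others between -0.053 and 0.037. Same-numbered libraries thus showed no shared deviation. These values cannot decide whether such libraries came from 1 embryo or culture, which the sources used here do not give. With the replicate block 4021 genes were higher and 4196 lower, 8217 in all, and the Hoxa counts stayed at 2 and 1. Upper-quartile scaling shifted the median of all genes by 0.048. Hoxa6 rested on 23 to 48 reads, and how much of its spread is counting error was not tested.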

Other observations

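Markers of other cell types, counted over the same 6 libraries, did not move in 1 direction. Over all genes tested 23.3% were higher and 24.1% lower. Of 5 tested endothelial genes 3 were higher in Rnf40-/- and 1 lower, with Cdh5 at 2.76 ± 2.17 normalized counts in Rnf40+/+ and 31.6 ± 8.03 in Rnf40-/-. Of 4 tested neural genes 2 were higher and 0 lower, and of 3 tested epithelial genes 0 were called. Both tested muscle genes were lower, with Acta1 at 4449, 1905 and 1592 in Rnf40+/+ and 453, 409 and 440.0 in Rnf40-/-, while Myod1, the defining muscle factor, had 0 reads in every library. Of 8 tested macrophage genes 2 were higher and 3 lower. Leaving out Rnf40+/+ replicate 1, in which Krt8, Syt1 and Ddx3y were highest, left 2 Hoxa genes higher and 1 lower. Leaving out Rnf40+/+ replicate 3, in which Lyz2 was highest, left 0 higher and 1 lower. The same 0 and 1 were left without Rnf40+/+ replicate 2 and without Rnf40-/- replicate 2. Without Rnf40-/- replicate 1 there were 2 higher and 1 lower, and without Rnf40-/- replicate 3, 1 higher and 1 lower.

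Among genes of limb, head and flank mesenchyme, the forelimb gene Tbx5 (87.3 ± 10.6 and 78.0 ± 7.97) and the hindlimb gene Tbx4 (83.6 ± 29.3 and 110.4 ± 11.6) were both measured in both genotypes and neither was called. Isl1 had 4.90 ± 1.95 and 15.8 ± 6.04 normalized counts and was higher, and the head mesenchyme gene Alx1 had 130.7 ± 3.71 and 81.5 ± 9.31 and was lower. Otx2, a marker of the head end without Hox expression, had no read in any library.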
